A study of Mus musculus with 20 samples.

Results

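Polysomal RNA from NSC-34 cells with induced HuD was compared with polysomal RNA from control cells, gene by gene, over every gene of the deposited count table. The comparison used the 4 POL-Seq libraries of a series of 20 samples, 2 from HuD cells and 2 from control cells, and 14906 of the 14924 genes in the table could be tested. NSC-34 is a mouse motor neuron-like hybrid cell line. The HuD cells were Trex-HuD NSC-34 cells, which carry the tetracycline receptor and a lentiviral His-HA tagged human HuD, and they were induced for 48 h with 2 μg/ml of tetracycline according to the labels and of doxycycline according to the methods. The labels describe the other arm only as control, without saying whether these cells carried the receptor or received the drug. The methods call the replicates biological duplicates, and whether the HuD cells were a single clone is not given in the sources used here. The 4 RNA-Seq libraries of total RNA from the same design were used for comparison.

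HuD, the product of Elavl4, is a neuronal RNA-binding protein of the ELAV family that binds U-rich and AU-rich stretches of 3′ UTRs and is known for stabilizing mRNAs, for promoting their translation and for its part in neuronal differentiation. POL-Seq sequences the mRNA that sediments with several ribosomes in a sucrose gradient, so a gene's polysomal level depends both on how much of its mRNA a cell holds and on how much of that mRNA is being translated. Levels are given as CPM, a gene's counts relative to the scaled total of its library. They are relative levels, so a change of the same size in all mRNAs, or in the amount of polysomal RNA per cell, does not show in them. In bulk RNA, more cells expressing a gene and more RNA per cell cannot be told apart.

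The libraries held 21296012 to 36284728 counts, the fewest in control replicate 2. This library also differed in composition from the other control. The SD of the log2 difference between replicates over genes was 0.425 in the controls and 0.265 in HuD cells, and 563 genes (3.78%) differed by over 2-fold between the controls, against 144 (0.966%) between the HuD libraries. The difference between the controls followed the transcripts' base composition and length. Its median (control 2 minus control 1, log2) went from 0.188 for genes of at most 40% GC to -0.32 above 60% GC, and from -0.266 for exon lengths of at most 1000 nt to 0.143 above 8000 nt, while the HuD libraries differed by medians of -0.025 to 0.018 over the same GC classes. Hence the change in the second pair of libraries, but not in the first, was higher for GC-rich mRNAs, with a median of 0.289 against -0.009 in the first pair above 60% GC. Of the genes above 60% GC, 5.6% were called higher and 0.147% lower in HuD. Of those of at most 40% GC, 4.41% were called higher and 2.04% lower, against 2.29% and 1.89% of all genes tested. The median change of these GC-poor genes was 0.099 in the first pair and -0.059 in the second. Medians of many gene lists are therefore also given without one control or the other. Over all genes tested, the median log2 change was 0 without control 2 and 0.008 without control 1. The motor neuron label was met in part. Of the general neuronal markers, peripherin (Prph) and Tubb3 reached 1196 and 673 CPM, and Nefl, Nefm and Snap25 were at 88.1 to 191.5 CPM. Stmn2, of the same class, was at 0.213 to 0.344 CPM. Of the motor neuron markers, Isl1 reached 47.3 CPM and Ache 27.6 CPM. Slc18a3 was at 5.72 to 9.06 CPM, Isl2 at 5.63 to 7.72, Lhx3 at 0.906 to 1.53 and Chat at 0.484 to 0.608. Mnx1 and Slc5a7 were not among the genes analysed here. Of the 6 glial markers, Gfap was at 0.385 to 0.565 CPM and Mbp at 4.43 to 7.08 CPM, and none of the 5 fibroblast markers was among the genes analysed.

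**Figure D1:**
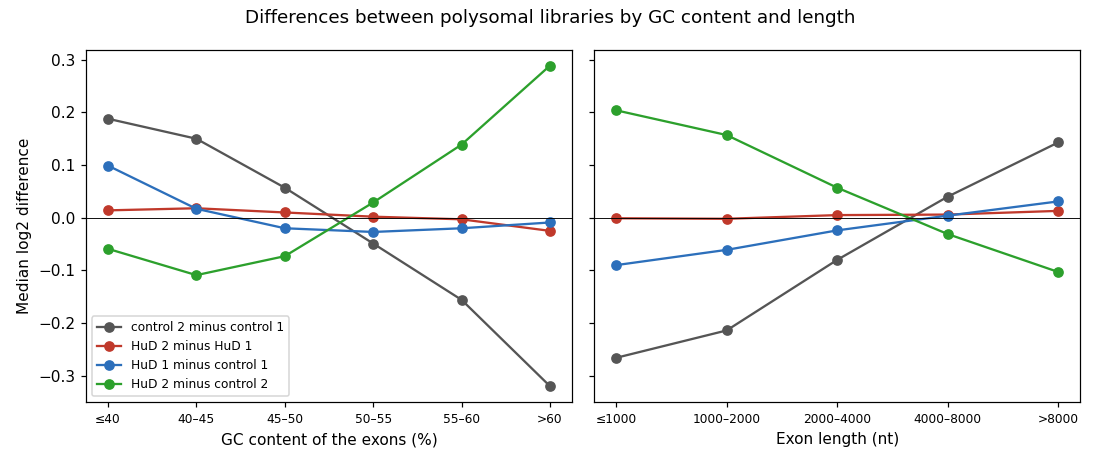
Median log2 differences between polysomal libraries (y axis) for classes of genes by GC content of the exons in percent (left) and exon length in nt (right). The HuD replicates stay near 0 throughout, whereas control 2 minus control 1 runs from 0.188 to -0.32 with GC content, and HuD 2 minus control 2 mirrors it.

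Elavl4 was the gene with the smallest p-value. Its polysomal level was 90.3 and 118 CPM in control cells and 243 and 225 CPM in HuD cells. Both HuD libraries were above both controls, with means of 104.3 ± 19.8 and 234 ± 12.3 CPM (SD, n = 2 each) and a log2 change of 1.17 ± 0.15 (SE), a 2.25-fold difference. The edgeR quasi-likelihood test gave a Benjamini-Hochberg adjusted p of 0.282. With the polysomal libraries alone, that test gave an adjusted p of 0.385. The log2 change was 1.38 without control 2, 0.98 without control 1, 1.11 without HuD replicate 1 and 1.22 without HuD replicate 2. An exact permutation test (two-sided) of 2 libraries against 2 cannot give a p below 0.333. In total RNA, Elavl4 was at 78.3 and 97.4 CPM in controls and at 237 and 212 CPM in HuD cells. The mouse gene lies on chromosome 4 of GRCm38 (chr4:110203722-110351909, minus strand), and the count table has no separate entry for the human transgene, whose reads can align to the mouse gene. Counts at the annotated mouse Elavl4 polyadenylation sites, from 3′ end sequencing of the same design, were 81.8, 37.1 and 78.4 CPM in control and 56.8, 31 and 51.2 CPM in HuD cells. The 3′ end values of both arms overlapped, unlike the polysomal ones.

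No gene passed an adjusted p of 0.05 in the edgeR fit of all 8 libraries, which had no replicate term. At an unadjusted p under 0.05, 341 genes were higher (2.29% of those tested) and 281 lower (1.89%) in HuD polysomes, together 4.17%, which is less than the 5% this threshold lets through when nothing differs. DESeq2 gave 3 genes (0.0201%) at an adjusted p under 0.05, Elavl4, Arxes2 and Marcks. The words higher and lower are used below for genes called at the unadjusted threshold, and none of these calls is established gene by gene. HuD and control libraries did not overlap for all 341 genes called higher and for 279 of the 281 called lower. The calls rest on the same values, so this is no separate evidence for them. Of all tested genes, 14.1% lay above the controls without overlap and 14.6% below. The changes were small, with a median log2 change of 0.373 among the genes called higher and -0.286 among those called lower, and 69 of the 622 reached 2-fold. Without control 2, 2.95% of genes were higher and 2.43% lower, and 164 of the 341 and 78 of the 281 were called again. Without control 1 these shares were 10.9% and 11.0%, and with GC and length offsets in the fit 2.58% and 2.25%. Across all genes, the changes of the 2 pairs of libraries had a Pearson r of 0.0621, which describes genes and not independent replicates. Among the 10692 genes of at least 5 CPM, 66 were at least 1.2-fold higher in both pairs and 44 at least 1.2-fold lower.

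**Figure D2:**
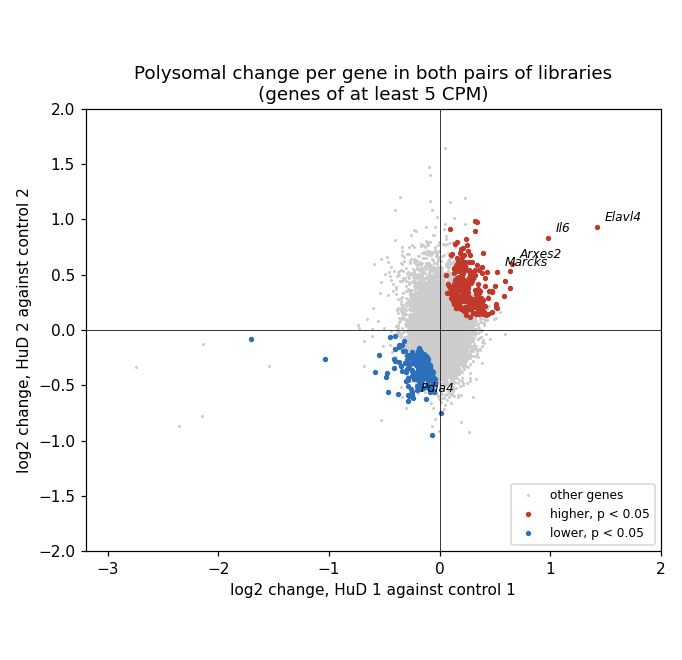
Log2 change in HuD replicate 1 against control replicate 1 (x axis) and in HuD replicate 2 against control replicate 2 (y axis) for the 10692 genes of at least 5 CPM, with genes called at an unadjusted p under 0.05 in red (higher) and blue (lower). The cloud is wider along the second pair and shows no diagonal, and Elavl4 (1.43 and 0.93) and Il6 (0.98 and 0.83) lie away from it.

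The genes higher with the smallest p-values, after Elavl4, are described in turn. Arxes2, a retrogene related to a signal peptidase subunit, was at 31.1 and 34.9 CPM in control and 48.9 and 52.6 CPM in HuD polysomes, a log2 change of 0.62 ± 0.11. Its near-identical neighbour Arxes1 makes the assignment of its reads uncertain. Marcks, a membrane-bound regulator of cortical actin, was at 136 and 129 CPM in control and 195 and 185.5 CPM in HuD polysomes (0.52 ± 0.1), with the same change of 0.52 in each pair. The total RNA of both genes was close to level, with log2 changes of 0.04 ± 0.11 for Arxes2 and 0 ± 0.1 for Marcks.

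The microtubule-binding protein tau (Mapt) was at 65.9 and 69.6 CPM in control and 83.9 and 90.1 CPM in HuD polysomes (0.36 ± 0.08). Rab39b, a small GTPase of neuronal vesicle traffic, went from 72 and 76.4 to 99.7 and 97.5 CPM (0.41 ± 0.09). Mllt11 (0.43 ± 0.09), Ndrg4 (0.38 ± 0.09), the glycosyltransferase gene Extl1 (0.45 ± 0.09), the ubiquitin ligase gene Mib2 (0.41 ± 0.1) and Trim66 (0.41 ± 0.08) had changes of like size. Apart from Elavl4, the adjusted p of each gene in this group was 0.969 in that fit. The pseudokinase gene Trib3, a target of the integrated stress response, was at 44.7 and 45.8 CPM in control and 58.7 and 74.3 CPM in HuD polysomes (0.55 ± 0.12). The cytokine gene Il6 was low, at 5.56 and 4.67 against 11 and 8.34 CPM (0.91 ± 0.21). With Elavl4 these are 12 genes, and each kept an unadjusted p under 0.05 whichever of the 4 polysomal libraries was left out. In total RNA, Extl1, Trim66, Mllt11, Trib3, Mapt, Il6 and Ndrg4 were also called higher, at log2 changes of 0.21 to 0.69.

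The lower genes with the smallest p-values formed a more mixed group. Tceb3, the elongin A subunit of a transcription elongation factor, was at 224 and 221 CPM in control and 169 and 174 CPM in HuD polysomes (-0.38 ± 0.08). Pdia4, a protein disulfide isomerase of the endoplasmic reticulum, was at 75.8 and 92.5 CPM against 64 and 60.2 CPM (-0.44 ± 0.11). Rell1 was at 64.3 and 71.6 CPM against 50.7 and 55.4 CPM (-0.36 ± 0.09), and it was lower in total RNA by the same order (-0.35 ± 0.09). Of the 12, 4 act in the cell cycle or at DNA: the replication fork gene Tipin (-0.34 ± 0.09), the securin gene Pttg1 (-0.27 ± 0.08), Cdk2 (-0.34 ± 0.1) and the end-joining gene Xrcc5, which encodes Ku80 (-0.37 ± 0.1). The acetyltransferase gene Kat2b (-0.29 ± 0.08), the RNA kinase gene Clp1 (-0.34 ± 0.1) and Nt5dc1 (-0.42 ± 0.11) were also lower, as were the zinc finger-type model Gm14403 (-0.46 ± 0.12) and the pseudogene Tdpx-ps1 (-0.43 ± 0.12), whose reads may come from related loci. Of the 12, 10 kept an unadjusted p under 0.05 whichever of the 4 polysomal libraries was left out, and Tdpx-ps1 (-0.32 without HuD replicate 1) and Clp1 (-0.3 without HuD replicate 2) did not.

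**Figure D3:**
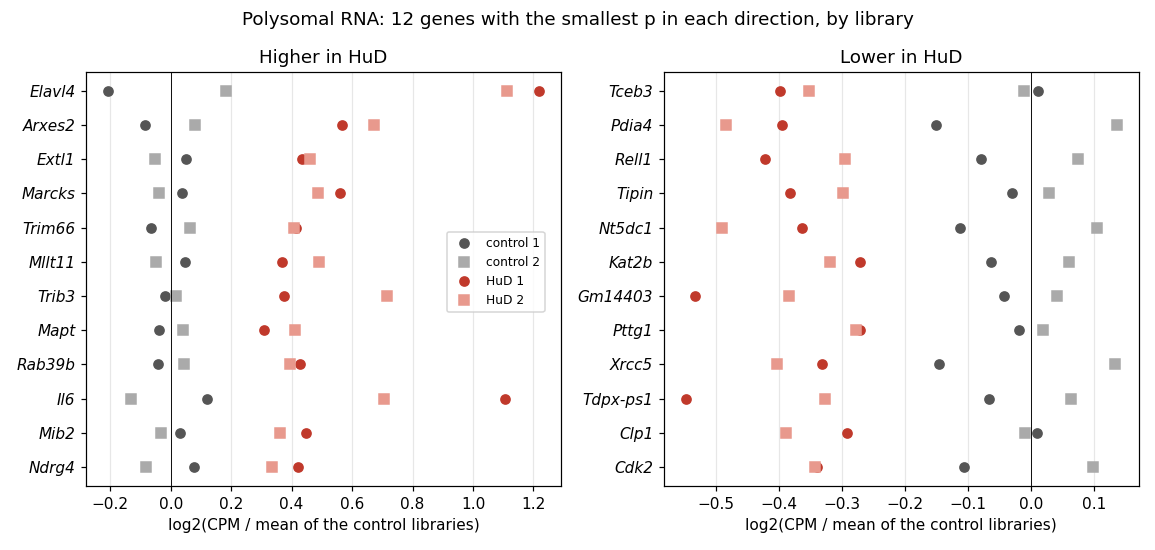
Polysomal level in each library as log2 of CPM over the mean of the control libraries (x axis) for the 12 genes with the smallest unadjusted p that were higher (left) and lower (right) in HuD, with replicates as circles and squares. HuD and control points do not overlap for any of these genes, by the rule that chose them, and Elavl4 has the widest gap.

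The unfolded protein and integrated stress response list had the highest share of calls among the lists of at least 10 genes. The integrated stress response slows general initiation and raises ATF4, which turns on amino acid transport and synthesis genes, whereas the unfolded protein response also induces chaperones of the endoplasmic reticulum. Of its 46 members, 11 were higher (23.9%) and 4 lower (8.7%), against 2.29% and 1.89% of all genes tested, and the list's median log2 change was 0.103, against -0.006 for all genes. The members higher were Trib3, the transcription factor genes Atf3 (12.7 and 10.1 against 15.6 and 15.4 CPM), Atf5, Cebpb and Cebpg, the glutathione-degrading enzyme gene Chac1 (38.5 and 34.6 against 45.1 and 53.1 CPM), the amino acid transporter genes Slc7a11 and Slc3a2, the one-carbon and serine synthesis genes Mthfd2 and Phgdh, and Sesn2. Their log2 changes ran from 0.2 to 0.55. The members lower were Pdia4, Pdia3, Pdia6 and Hsp90b1, all folding enzymes or chaperones of the endoplasmic reticulum, at -0.23 to -0.44. Beyond the 4 of these 15 with the smallest p, they were named after their values were seen. The calls depended on the libraries. Without control 2, Atf5, Cebpb, Hsp90b1, Pdia3 and Pdia6 lost their call, and other members lost it with another library left out. The list's median log2 change was 0.083 without control 2 and 0.07 without control 1. Trib3 and Atf3 among those higher and Pdia4 among those lower kept their call whichever library was left out. In total RNA, 4 members were higher and 1 lower at the same threshold.

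SNARE and synaptic vesicle genes, which carry out vesicle fusion, had calls in one direction. Of 47 members, 6 were higher (12.8%) and none lower, against 2.29% and 1.89% of all genes tested. Without overlap, 16 lay above the controls and 2 below, against 14.1% and 14.6% of all genes, and the list's median was 0.059. Vamp4 was at 85.6 and 87 CPM in control and 107 and 104.3 CPM in HuD polysomes (0.29 ± 0.08). Snap25, a plasma membrane SNARE, was at 130.5 and 134 CPM against 164 and 160.0 CPM (0.29 ± 0.09). Rab3a (0.33 ± 0.09) and the vesicle glycoprotein gene Sv2a (0.29 ± 0.1) were also higher, as were Vamp2 and Syngr1 (0.24 and 0.32). Syngr1 lost its call without control 2, and Sv2a and Vamp2 without control 1. The list's median was 0.079 without control 2 and 0.091 without control 1. Pair medians were 0.075 and 0.084. In total RNA, 4 members were higher and none lower, against 1.78% and 0.865% of all genes, at a median of 0.029.

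Other neuronal lists had a few calls each, where 2.29% of all genes were higher and 1.89% lower. Among 25 stathmins, CRMPs and microtubule-associated proteins, Mapt and Stmn4 (10.6 and 9.24 against 16.6 and 13.4 CPM, 0.59 ± 0.18) were higher and none lower. Of 29 neuronal RNA-binding protein genes, the cytoplasmic polyadenylation element binding genes Cpeb2 (0.27 ± 0.08) and Cpeb4 (133 and 162 against 190 and 187 CPM, 0.35 ± 0.12) were higher and none lower. Elavl4 was the sole call among 18 AU-rich element binding protein genes. Of 55 kinesin, dynein and dynactin genes, Klc1, Dynll2 and Dynlt3 were higher (0.27 to 0.36) and Kif24 lower (-0.38 ± 0.14). The neurofilament gene Nefh (-0.3 ± 0.13) was lower in a list of 10, with 253 and 345 CPM in control and 242 and 244 CPM in HuD polysomes, but it was not called without control 2. Among 53 axon guidance genes, the low ligand gene Sema3e (0.577 and 0.433 against 1.13 and 1.16 CPM) was higher and Slit2 (-0.26 ± 0.11) lower. Of 17 cholinergic and motor neuron genes, Ache, which encodes acetylcholinesterase, was higher (0.32 ± 0.12). Of 28 amyotrophic lateral sclerosis genes, Chchd10 was higher (161.5 and 115 against 174 and 185 CPM, 0.38 ± 0.14), with control 2 below the other libraries. Of 38 core autophagy genes, Atg12 was higher (0.23 ± 0.08). Several of these lists had medians whose sign depended on the control left out. This held for the stathmin, neuronal RNA-binding protein, AU-rich element binding protein, kinesin and amyotrophic lateral sclerosis lists. Their medians were 0.071 to 0.102 without control 2 and -0.035 to -0.121 without control 1. For axon guidance genes the median was -0.016 without control 2 and 0.081 without control 1.

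Genes of proliferation tended to the other side. Of 55 cell cycle and DNA replication genes, 5 were lower (9.09%) and 1 higher, against 1.89% and 2.29% of all genes tested. Without overlap, 22 lay below the controls and 4 above, against 14.6% and 14.1% of all genes. The median log2 change of the list was -0.15, with -0.076 in the first pair and -0.231 in the second. In total RNA, 5 members were also lower and none higher, against 0.865% and 1.78% of all genes. The median in total RNA was -0.106, and that of the difference between polysomal and total RNA change was -0.019. Cdk2 was at 105.1 and 121 CPM in control and 89.4 and 89.2 CPM in HuD polysomes. Cdk4, the cyclin D partner, was at 1076 and 1105 against 916 and 942 CPM (-0.23 ± 0.09). The proliferation marker Mki67 was at 522 and 614 against 425 and 481 CPM (-0.33 ± 0.11), and it was not called without control 2. Mcm3 and Cdc6 (-0.31 and -0.36) were also lower, but not without control 2. The member higher was Cdkn1a, which encodes the cell cycle inhibitor p21, at 49.6 and 40.7 CPM in control and 62 and 57.5 CPM in HuD polysomes (0.4 ± 0.1). Of 10 replication-dependent histone genes, Hist3h2a and Hist3h2ba were higher (0.66 ± 0.25 and 0.43 ± 0.18), but not without control 2. The median of the 55 cell cycle genes was -0.052 without control 2 and -0.238 without control 1. Cdk4 lost its call with either HuD replicate left out. Of 37 proteasome genes, none was called, at a median of -0.082. Without overlap, 16 of them lay below the controls and none above, against 14.6% and 14.1% of all genes. The median of these 37 genes was -0.027 without control 2 and -0.148 without control 1.

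**Figure D4:**
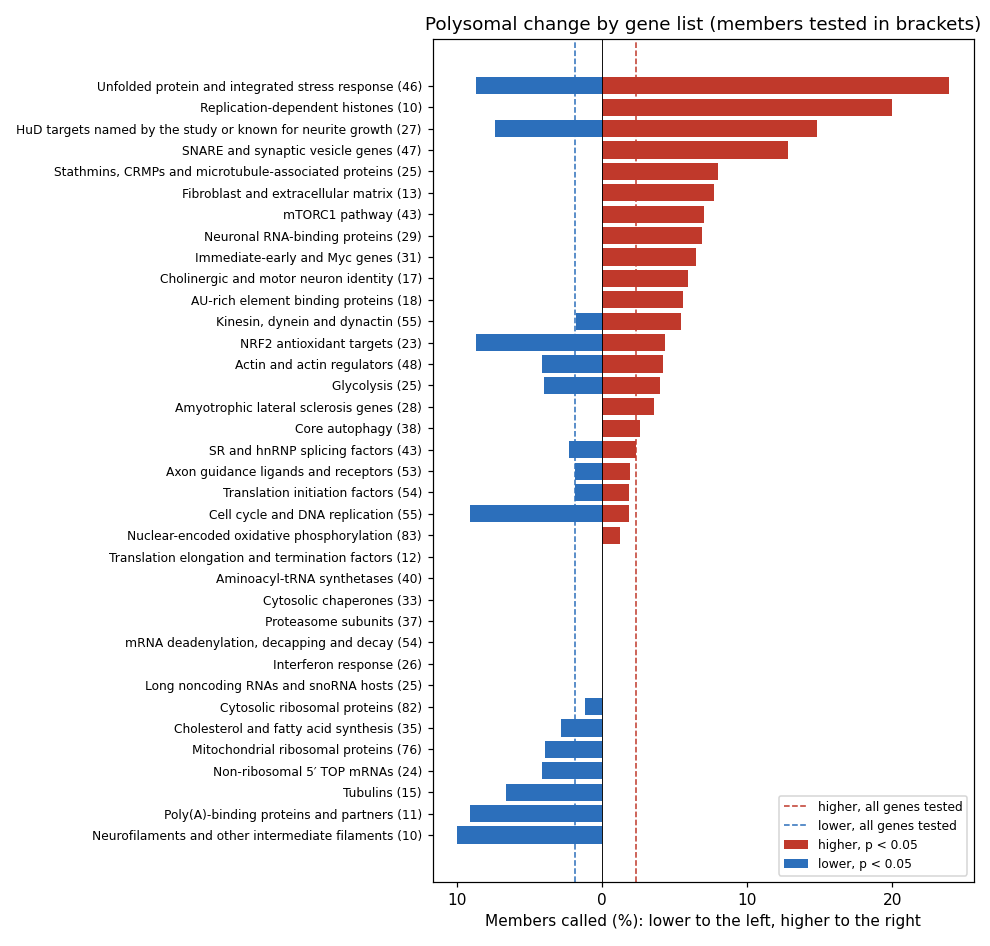
Share of the tested members of each gene list called higher (red, to the right) or lower (blue, to the left) at an unadjusted p under 0.05, in percent, for lists of at least 10 tested genes, with the shares of all tested genes as dashed lines (2.29% and 1.89%). The unfolded protein and integrated stress response list reaches 23.9% on the right, and the SNARE list 12.8% with none on the left.

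Genes of the translation machinery were close to level or slightly lower with all libraries, and their medians depended on which control was used. Of 82 cytosolic ribosomal protein genes, none was higher and 1, Rpl7l1, was lower (-0.24 ± 0.09), with a median of -0.011. Without control 2 the median was -0.062, whereas without control 1 it was 0.047. The median was -0.126 in the first pair and 0.106 in the second, so the sign of the list's change differed between pairs, and these short mRNAs are among those that control 2 held at lower levels. Of 76 mitochondrial ribosomal protein genes, Mrpl42, Mrpl45 and Mrpl47 were lower (-0.19 to -0.32) and none higher. The median of the 76 was -0.051 without control 2 and -0.006 without control 1. Of 83 nuclear oxidative phosphorylation genes, Cox6a2 was higher (0.47 ± 0.16), but not without control 2. The median of the 83 was -0.049 without control 2 and 0.149 without control 1. The pair medians of this list were -0.066 and 0.135. A further list held 24 non-ribosomal mRNAs with a 5′ terminal oligopyrimidine tract, whose translation depends on mTORC1. Of these, 9 lay below the controls without overlap and none above, against 14.6% and 14.1% of all genes. The median of these 24 mRNAs was -0.107, or -0.032 without control 2 and -0.138 without control 1. One of them, the poly(A)-binding protein gene Pabpc1, was lower, at 737 and 713 CPM in control and 572 and 642 CPM in HuD polysomes (-0.26 ± 0.1), against 0 ± 0.1 in total RNA. Eef1a1, the main elongation factor gene, was at 5635 and 5875 CPM in control and 5167 and 5164 CPM in HuD polysomes (-0.16 ± 0.11).

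Among 54 initiation factor genes, Eif4ebp1, the mTORC1-controlled repressor of cap-dependent initiation, was higher (0.43 ± 0.15) and Eif2b3 lower (-0.29 ± 0.13). The median of the 54 was -0.072, with 0.003 in the first pair and -0.151 in the second. It was 0.027 without control 2 and -0.146 without control 1. Eif4ebp1 had 122 and 84.9 CPM in control and 135 and 145 CPM in HuD polysomes, so control 2 alone lay well below the other libraries. It was one of 3 higher among 43 mTORC1 pathway genes, with Ddit4 (0.42 ± 0.15) and Sesn2 (0.29 ± 0.11), both stress-induced inhibitors of mTORC1, and none was lower. Of all genes tested, 2.29% were higher and 1.89% lower. Eif4ebp1 and Ddit4 lost their call without control 2, and Sesn2 without control 1. The median of the 43 was 0.009 without control 2 and 0.004 without control 1. None of 40 aminoacyl-tRNA synthetases, 12 elongation and termination factors, 33 cytosolic chaperones, 54 mRNA decay genes, 26 interferon response genes and 25 long noncoding and snoRNA host genes was called with all 4 libraries. Their medians depended on the control left out. Without control 2 they were 0.062 for the chaperones, 0.095 for the synthetases and 0.013 for the decay genes. Without control 1 these were -0.269, -0.067 and -0.126. The elongation and termination factors had -0.025 without control 2 and -0.113 without control 1. The interferon response genes had 0.003 and 0.12, and the long noncoding and host genes -0.124 and 0.096, in the same order. For Hsp90ab1, the most abundant chaperone mRNA, the 4 values were 1520.0 and 2003 CPM in control and 1650.3 and 1593 CPM in HuD.

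The 7 mitochondrially encoded mRNAs showed how far a single control can set a value. Their summed polysomal level was 24360.0 and 15520.0 CPM in controls 1 and 2, against 17630.0 and 16220.0 CPM in HuD, and none was called. The median log2 change was -0.348, made up of -0.608 in the first pair and 0.02 in the second. For mt-Co1, a subunit of cytochrome c oxidase, the levels were 5848 and 2945 CPM in control and 3709 and 3156 CPM in HuD polysomes. Without control 2 the median was -0.647, and without control 1 it was 0.133.

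The remaining lists held scattered calls, where 2.29% of all genes were higher and 1.89% lower. Actin regulators had Pfn2 (profilin 2, 0.32 ± 0.09) and Marcks higher and the tropomyosin genes Tpm3 and Tpm4 lower (-0.24 and -0.23) among 48. SR and hnRNP splicing factors had Hnrnpa0 higher (0.33 ± 0.12) and Hnrnpul1 lower (-0.23 ± 0.08) among 43. The median of these 43 was 0.099 without control 2 and -0.178 without control 1. Glycolysis had the neuronal enolase gene Eno2 higher (30 and 35 against 42.4 and 46.1 CPM, 0.45 ± 0.11) and Pgam1 lower (-0.22 ± 0.09) among 25. NRF2 targets had Slc7a11 higher and Gsr and Gsta4 lower among 23. Cholesterol and fatty acid synthesis had Nsdhl lower among 35, and the tubulins had Tube1 lower among 15. Immediate-early and Myc genes had Atf3 and Dusp1 higher among 31, with a median of -0.073 without control 2 and 0.258 without control 1. No glial marker was called among 8 genes, and of 13 fibroblast and matrix genes the low Col6a2 was higher (1.25 in both controls against 1.91 and 1.78 CPM).

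Many of these list calls needed all 4 libraries. Of the 41 list members called higher and 27 called lower, 13 and 2 kept their call whichever library was left out, namely Atf3, Cdkn1a, Cpeb2, Elavl4, Eno2, Mapt, Marcks, Pfn2, Rab3a, Sema3e, Snap25, Trib3 and Vamp4, and Cdk2 and Pdia4, and no member changed sign. Without control 1, 12 of the calls higher (then at log2 changes of 0.16 to 0.73) and 3 of those lower (-0.23 to -0.17) were lost, among them Slc7a11, Slc3a2, Mthfd2, Phgdh, Sesn2, Vamp2, Sv2a, Klc1, Cpeb4 and Pabpc1. Without control 2, 14 higher (0.14 to 0.62) and 19 lower (-0.28 to -0.05) were lost, among them Ache, Chchd10, Cox6a2, Ddit4, Eif4ebp1, Hnrnpa0, Syngr1, Mki67, Nefh, Mrpl45, Mrpl47, Rpl7l1, Slit2, Kif24, Tpm3 and Pgam1. Without HuD replicate 1, 17 higher (0.21 to 0.53) and 23 lower (-0.47 to -0.13) were lost, among them Stmn4, Cebpg, Cdk4, Tpm4 and Hnrnpul1. Without HuD replicate 2, 22 higher (0.15 to 0.61) and 20 lower (-0.44 to -0.16) were lost, among them Chac1, Atg12, Klc1, Cdk4 and Gsta4.

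HuD-bound mRNAs were taken from CRAC, which maps where a tagged protein was crosslinked to RNA in the same cell system, and which played no part in the polysomal counts. The labels give 10 μg/ml of tetracycline for 24 h for the CRAC cells, HuD and control alike, unlike the HuD cells of POL-Seq. The paper's results section instead names 2 μg/ml of doxycycline over 48 h for CRAC. Of the 1282 protein coding target genes with counts, 52 were higher (4.06%) and 25 lower (1.95%), against 244 (2.09%) and 215 (1.84%) of 11665 other protein coding genes. The share higher was 3.31% with 1 bound window, 3.61% with 2 or 3 and 8.48% with at least 4 windows (14 of 165), and the shares lower were 2.04%, 1.51% and 2.42%. The median log2 changes of these classes, in that order, were -0.008, 0.001 and 0.027. They were 0.034, 0.054 and 0.069 without control 2, and -0.046, -0.011 and -0.019 without control 1. Targets were more abundant, with a median of 114 CPM against 30.2 CPM, but the share higher was above that of other genes in each class of polysomal level, from 10.2% against 2.8% at 5 to 20 CPM to 3.09% against 1.23% at 100 CPM and over. This did not hold in each class of exon length. Up to 2000 nt, 2.74% of targets and 3.36% of the others were higher. The shares were 4.36% and 2.21% from 2000 to 4000 nt and 5.22% and 1.74% from 4000 to 8000 nt. Above 8000 nt they were 2.18% and 1.65%. The median log2 change of the targets was 0. Without control 2 the shares higher were 8.27% of targets and 2.53% of the others. Without control 1 they were 11.7% and 10.9%, and 16.1% against 11.7% were lower, so the contrast in the share higher was smaller when control 2 was the sole control. Without HuD replicate 1, 25 of the 208 genes higher in all were targets, and without HuD replicate 2, 20 of 137. Of the 14906 genes tested, 1282 were targets. Target mRNAs had a median GC of 45.6%, against 50.8% in the others, and the controls differed in GC-rich and GC-poor mRNAs. With GC and length offsets in the fit, the shares higher were 6.32% and 2.2%. What part of the contrast the libraries' composition makes up was not tested.

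**Figure D5:**
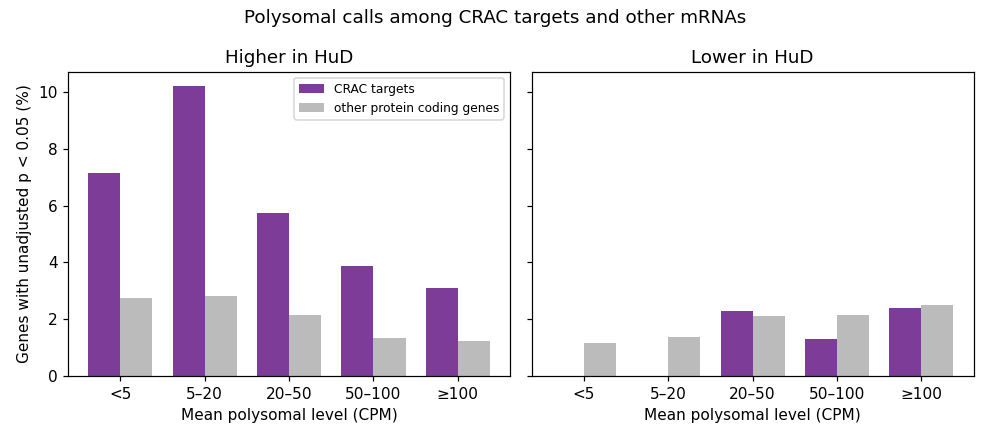
Share of genes with an unadjusted p under 0.05 (y axis, percent) that were higher (left) or lower (right) in HuD polysomes, for CRAC targets (purple) and other protein coding genes (grey) in classes of mean polysomal level in CPM (x axis). In all 5 classes the share higher is larger for targets, for example 5.75% against 2.16% at 20 to 50 CPM, while the shares lower are at most 2.51% in either group.

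Among the targets, those higher with the smallest p were Extl1, Marcks, Mllt11, Rab39b and Ndrg4, and those lower were Rell1, the lamin B receptor gene Lbr, Tpm4, Gid4 and the chromatin protein gene Hmgb2. The bound windows in their 3′ UTRs are shown to let the sites of both groups be compared. Each RNA sequence is given 5′ to 3′ on the strand of the gene on GRCm38, with the window that the CRAC table lists in capitals and 10 nt to each side. For genes with several windows, the one with the most deletions, the mark of crosslinking, is shown, or of those tied (Rell1, Lbr and Tpm4) the one with the most covering reads, and both are shown for Rab39b.
Marcks, chr10:37135314-37135320, minus strand, 43 covering reads: aguuguauagGCUUUAUuguuuauugc
Rab39b, chrX:75573567-75573573, minus strand, 30 covering reads: aggacugugaGAUUUUUgaucccauuu
Rab39b, chrX:75573555-75573561, minus strand, 15 covering reads: uuuuugauccCAUUUUAcauaauaaga
Mllt11, chr3:95219907-95219913, minus strand, 142 covering reads: uagaucauagGAUUUCCucccgucagc
Extl1, chr4:134356839-134356845, minus strand, 8 covering reads: gauccaccugACUUUUGcuucccaggg
Ndrg4, chr8:95714852-95714858, plus strand, 6 covering reads: uuguguauucUGUUUGGuggcugauaa
Rell1, chr5:63911056-63911062, minus strand, 14 covering reads: uguuuuauacAGUUUCUaucaugaagu
Lbr, chr1:181816515-181816521, minus strand, 97 covering reads: aacagaauucUCUUUAAgucaguuuau
Tpm4, chr8:72152013-72152019, plus strand, 38 covering reads: uuaauucuuuCCUUUUCcauucaaaug
Gid4, chr11:60442091-60442097, plus strand, 7 covering reads: gcaacaaagaGCUUUGCgaggaaauua
Hmgb2, chr8:57514320-57514326, plus strand, 30 covering reads: acuacaguuaGAUUUAAagcuuuugau

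All 11 windows have UUU at their centre, which the motif score used to select the CRAC sites favours, so it does not compare the genes that were higher with those lower. Lbr, with 4 windows whose covering reads sum to 192, was at 159 and 168 CPM in control and 136.3 and 136.0 CPM in HuD polysomes (-0.26 ± 0.08). Marcks, with 5 windows whose covering reads sum to 132, was higher at a log2 change of 0.52 ± 0.1. A read can count in more than one window in these sums. Tpm4 (167.4 and 167.3 against 143 and 143 CPM), Gid4 and Hmgb2 (355 and 422 against 319 and 331 CPM) had changes of -0.23 to -0.26, and Hmgb2 was not called without control 2. Of 27 HuD targets named by the study or known from neurite growth, 4 were higher (14.8%), namely Marcks, Mapt, Cdkn1a and Ache. Lower were 2 (7.41%), namely Pabpc1 and Ikzf5 (-0.17 ± 0.07), against 2.29% higher and 1.89% lower of all genes tested. Marcks, Pabpc1 and Ikzf5 had CRAC windows, whereas Mapt, Cdkn1a and Ache had none. This list was chosen in part on these samples and is no independent evidence of a direction. Lmo4 (0.22 ± 0.1), Nrn1 (-0.12 ± 0.08) and Eif4a1 (-0.16 ± 0.11) did not pass.

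Polysomal changes were set beside those in total RNA, which come from other libraries of the same design, to see which polysomal changes had a counterpart in mRNA level. Of the 341 genes higher on polysomes, 66 were also higher in total RNA and 1 was lower, and of the 281 lower, 28 were also lower and 4 higher, against 1.78% of all genes higher and 0.865% lower in total RNA. Over all genes, the log2 changes of both fractions had a Pearson r of 0.132 across genes, which are not independent replicates. The difference between the fractions was tested as an interaction, and no gene passed an adjusted p of 0.05, with 61 genes (0.409%) higher and 85 (0.57%) lower on polysomes than in total RNA at an unadjusted p under 0.05. DESeq2 also gave no gene, with 27 and 23 at the unadjusted threshold. Eno2 (0.55 ± 0.11 in total RNA), Trim66 and Elavl4 changed alike in both fractions within their errors. Cdkn1a was higher on polysomes, and its total RNA had a log2 change of 0.17 ± 0.1.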

How the data were processed

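RNA-Seq and POL-Seq libraries were made by the authors with a stranded mRNA kit, aligned with STAR 2.5.3a to GRCm38.p4 and counted per gene with Gencode M6, and the authors deposited the counts without normalization. Polysomal RNA came from pooled sucrose gradient fractions. For 3′ ends the authors deposited counts near polyadenylation sites, which were summed per gene here. For CRAC the authors pooled the replicates and deposited a coverage signal, a count of deletions, a p-value and a score per site, of which only coverage and deletions were used. Window positions were moved by 1 or 2 nt to where the listed sequence lies in GENCODE vM21 transcripts.

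Counts of all 8 polysomal and total RNA libraries were fitted with edgeR 4.0.16 in R 4.3.3 (TMM, filterByExpr, quasi-likelihood test, Benjamini-Hochberg adjustment, 4 residual degrees of freedom), without a block. CPM are TMM-scaled. Values beside ± after a log2 change are SE. Exon length and GC matched 14842 of 14906 genes (99.6%). Named genes are Elavl4, the 12 with the smallest p in each direction among non-overlapping genes of at least 5 CPM, up to 4 called members per list (otherwise the 2 most abundant), genes the study names, and 5 CRAC targets in each direction. Other genes were named after their values were seen. Members, lists and tests were chosen with earlier results of these data known. Alternatives were RLE, DESeq2 1.42.0, other filters, the replicate block, polysomal libraries alone, each library left out and, chosen after seeing the data, GC and length offsets. The fit was tested on simulated data. The result for 1 gene the paper names is not reported here.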

Additional observations from a re-analysis of the deposited data

Results flagged for a closer look

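For 6 of the named genes the polysomal and the total RNA change differed at an unadjusted p under 0.05 of the interaction in edgeR, though none at an adjusted p of 0.05. Arxes2 was higher on polysomes than in total RNA by 0.58 ± 0.16 on the log2 scale, and Marcks by 0.52 ± 0.14. In total RNA, Marcks was at 108.0 and 129.5 CPM in control and 114.9 and 123.3 CPM in HuD cells, which overlap, and Arxes2 at 28.8 and 31.3 against 28.2 and 33.7 CPM. Hnrnpa0 differed by 0.43 ± 0.17 and Pfn2 by 0.35 ± 0.13, both from a higher polysomal and a slightly lower total level. Gm14403 differed by -0.53 ± 0.17 and Tdpx-ps1 by -0.4 ± 0.17, both from a lower polysomal level.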

How the results depend on the processing

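The replicate SD over genes was 0.425 (log2) in the controls against 0.265 in HuD. On data simulated for this comparison (14846 genes), the same fit recovered 74.6% of changes of 1.5-fold and 98.5% of 2-fold at an adjusted p under 0.05. These changes were set only in genes of at least 5 CPM. The simulated libraries had independent noise around a common mean, without the shift of control 2 along GC and length. The recovered shares therefore do not tell what share of changes the fit would find in the real libraries. DESeq2 gave 202 genes higher, 167 lower and 3 at an adjusted p under 0.05, and for the difference from total RNA 27 higher and 23 lower. Restricting genes to a mean of at least 5 CPM gave 178 lower, and 37 and 24 for the difference from total RNA. The polysomal libraries alone gave 207 higher and 108 lower. GC and length offsets gave 1 gene, Elavl4, at an adjusted p under 0.05. With each library left out in turn, the genes higher ranged from 137 to 1624, those lower from 106 to 1638 and those at an adjusted p under 0.05 from 0 to 372. The high ends came without control 1 and the low ends without HuD replicate 2, and without HuD replicate 1 there were 208 and 123. For the difference from total RNA the ranges were 30 to 1164, 65 to 860 and 0 to 47, again highest without control 1 (173 lower without control 2). The log2 change of Elavl4 ranged from 0.98 to 1.38, and was 1.17 in DESeq2 (adjusted p = 3.25e-11) and 1.2 with GC and length offsets (adjusted p = 0.0167). In edgeR with the polysomal libraries alone it was 1.17, at an adjusted p of 0.385. Of 83 other genes described, mt-Cytb (0.06) and mt-Co1 (0.22) turned positive without control 1, against -0.66 and -0.76 without control 2, and Hsp90ab1 (0.1) turned positive without control 2, against -0.3 without control 1, and no other direction among them changed. Over all 112 genes that the naming rule took, 18, these 3 included, changed sign without one control or the other, and none of the 18 was called. Without control 2, 26 of the 83 lost their call and 2 gained one. The cause of these shifts was not tested.

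Same-numbered libraries deviated together (r from 0.188 to 0.387 across genes in the 6 pairs of groups), but with 2 numbers they share only a number. With the replicate block there were 643 genes higher and 743 lower, and 163 and 199 for the difference from total RNA. With the replicate block and the polysomal libraries alone there were 513 higher and 31 genes at an adjusted p under 0.05. Elavl4 was at 1.19 (edgeR adjusted p = 4.67e-18, against 0.385 without the block). Il6, Arxes2, Trib3, Marcks and Stmn4 also passed (adjusted p of 3.74e-05, 0.000245, 0.00529, 0.00933 and 0.0193). This fit estimates 2 group means and a replicate term from 4 libraries. It thus has fewer residual degrees of freedom than the main fit, and its adjusted p-values lean on the spread shared across genes. With the replicate block and GC and length offsets there were 804 higher, 907 lower and 3 at an adjusted p under 0.05 (Elavl4 at 1.2, adjusted p = 0.00798), and 251 and 261 for the difference from total RNA.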
